A study of Mus musculus with 6 samples.

Results

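The genes described are 8 genes of the major histocompatibility complex (MHC) pathway, taken by name from the table of all genes, and all 8 were found among its 78409 rows. They were H2-Aa, H2-Ab1, H2-Eb1 and Cd74 of class II, and H2-K1, H2-D1, B2m and Tap1 of class I. RNA came from whole hearts of mice aged 11 months, 3 with Ybx1 knocked out in cardiomyocytes (Ybx1cmKO) and 3 littermates as Control. The labels name neither the Cre driver, the strain nor the sex, and whole-heart RNA also holds RNA of the other heart cells, in which the gene was not targeted. Each heart was 1 library, with 12270796 to 15141525 counts. Nothing in the labels says more about how the hearts were sampled, so p-values measure the spread between these 6 libraries.

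MHC class I molecules consist of a heavy chain, such as H2-K or H2-D, paired with beta-2 microglobulin (B2m). They are found on nearly all nucleated cells and show CD8 T cells peptides that the transporter TAP has carried into the endoplasmic reticulum. MHC class II molecules are pairs of an alpha and a beta chain (H2-Aa with H2-Ab1, and H2-Ea with H2-Eb1). They are found mainly on macrophages, dendritic cells and B cells, are escorted by the invariant chain Cd74, and show peptides of engulfed proteins to CD4 T cells. Transcription of class II genes depends on the coactivator CIITA and on factors bound to the X and Y boxes of their promoters. The protein made from Ybx1, YB-1, takes its name from the Y box, since it was first isolated as a protein that binds this element of class II promoters. The comparison addresses which heart transcripts differ when cardiomyocytes lack the gene.

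RefSeq promoters (build GRCm38.p6, 250 bases before to 50 after each annotated start) were matched by symbol for 6 of the 8 members. The letters searched were the Y box CTGATTGG, its core CCAAT, the X box core GCAACAG, the X2 box TGACGTCA and the core of the interferon-stimulated response element GAAANNGAA, each on both strands. A Y box always holds a CCAAT core. H2-Aa, H2-Eb1, H2-K1, H2-D1 and Tap1, that is 5 of the 6 members with a promoter, held the Y box in at least 1 promoter, against 4.70% of 27025 genes. The Y box is an element known from class II promoters, and H2-K1 and H2-D1 are related genes. The 5 are therefore not independent finds. The CCAAT core was held by 6 of 6 members and by 41.1% of all genes. Shown are the promoters of the members in which the Y box lay at a similar distance shortly before the start, and that of B2m, which held the core alone there. Each is the 160 bases before the annotated start, 5′ to 3′ in the direction of the gene, with matches in capitals.
H2-Aa, chr17:34287824-34287983, minus strand: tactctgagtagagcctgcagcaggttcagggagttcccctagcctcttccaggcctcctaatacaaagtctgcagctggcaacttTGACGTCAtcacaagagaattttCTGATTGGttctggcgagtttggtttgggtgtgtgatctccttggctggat
H2-Eb1, chr17:34305707-34305866, plus strand: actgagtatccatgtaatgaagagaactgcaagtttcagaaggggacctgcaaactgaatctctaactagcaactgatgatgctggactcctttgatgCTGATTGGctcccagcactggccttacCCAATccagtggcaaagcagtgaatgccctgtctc
H2-D1, chr17:35262934-35263093, plus strand: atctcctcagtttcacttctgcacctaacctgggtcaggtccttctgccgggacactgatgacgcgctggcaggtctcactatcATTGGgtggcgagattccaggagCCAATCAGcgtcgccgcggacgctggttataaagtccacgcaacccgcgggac
B2m, chr2:122147527-122147686, plus strand: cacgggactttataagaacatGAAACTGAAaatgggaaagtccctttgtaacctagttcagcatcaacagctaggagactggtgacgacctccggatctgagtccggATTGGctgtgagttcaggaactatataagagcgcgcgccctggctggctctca

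Counting the first transcribed base as position 0, the Y box lay at -51 to -44 in H2-Aa and at -62 to -55 in H2-Eb1, in the forward direction. It lay reversed at -53 to -46 in H2-D1. In H2-K1, which has 2 annotated starts 14 bases apart, it lay reversed next to the starts, and in Tap1 reversed at -222 to -215. The X2 box was found in H2-Aa, at -74 to -67, and the same promoter held both boxes in 0.0852% of 32851 promoters. B2m held the interferon element core at -139 to -131 (9.76% of genes). The X box core with these exact letters was in none of the 6. A match is a description of the letters and does not show that a protein is bound.

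**Figure D1:**
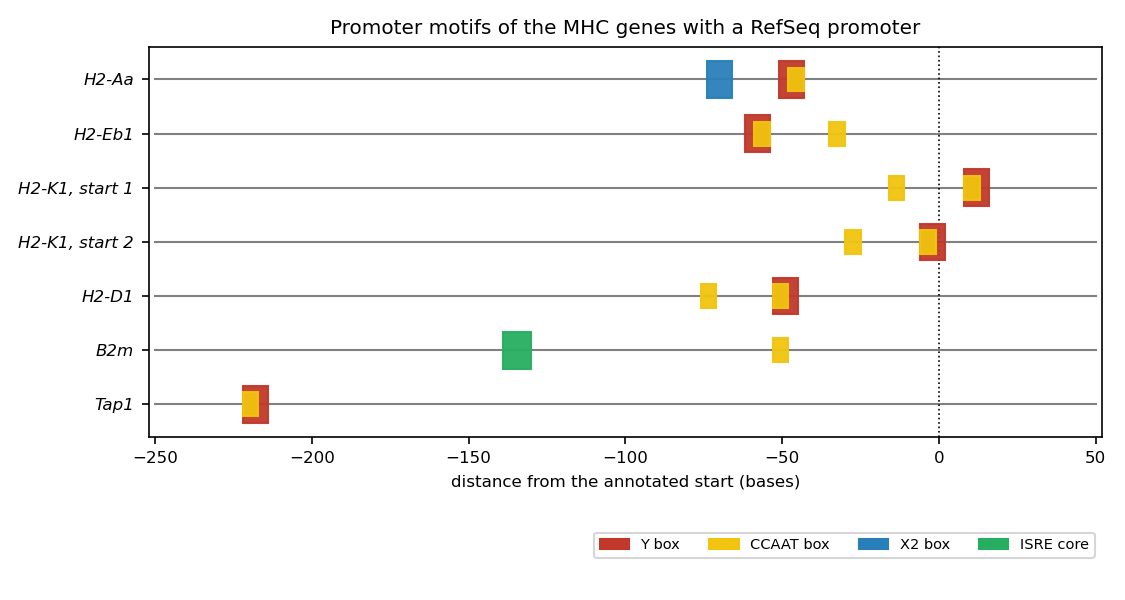
Motif matches in the 7 promoters of 6 MHC genes, by distance in bases from the annotated start (dotted line at 0). Boxes show the Y box, its CCAAT core, the X2 box and the interferon element core; B2m is the gene without a full Y box.

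Before the members, the libraries were compared. Ybx1 itself was at 203, 172 and 110 CPM in the Ybx1cmKO hearts, against 851, 813 and 898 CPM in the Control hearts, after scaling by TMM factors (CPM scaled between libraries, the unit used from here on). Ybx1cmKO heart 3 stood apart in its composition, where mitochondrial rRNA took 10.7% of all counts, against 20.5% to 26.3% in the 5 other libraries. In CPM before TMM scaling, the RNA Malat1 was at 668 in that heart, against 3317 to 7923 in the 5 other libraries. Xist, the RNA of the inactive X chromosome, was at 169 CPM in Ybx1cmKO heart 3 and at 384 CPM in Control heart 1, and at 0.228 to 2.58 CPM in the other 4 libraries. A group of 4 Y-linked genes (Ddx3y, Uty, Kdm5d and Eif2s3y) summed to 0.612 and 1.78 CPM in those same hearts and to 160 to 218 CPM in the other 4. Some estimates below are also given without Ybx1cmKO heart 3 or without both hearts with Xist. An estimate given only with all libraries was not thereby shown to be stable.

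The class II chains differed between hearts of a group more than between the groups. H2-Aa, the alpha chain of the A molecule, was at 12.8, 15.5 and 43.9 CPM in Ybx1cmKO hearts 1, 2 and 3, against 23.1, 11.5 and 14.9 CPM in Control hearts 1, 2 and 3. Its partner H2-Ab1 was at 7.41, 10.9 and 18.7 CPM in Ybx1cmKO hearts and 11.6, 4.62 and 9.15 CPM in Control hearts. H2-Eb1, the beta chain of the E molecule, was at 9.38, 17.2 and 47.8 CPM in Ybx1cmKO hearts and 18.2, 7.76 and 14.3 CPM in Control hearts. For all 3 chains the highest value was that of Ybx1cmKO heart 3, the other 2 Ybx1cmKO hearts lay within the Control range, and the groups overlapped. The invariant chain Cd74 was at 15.8, 29.1 and 30.4 CPM in Ybx1cmKO hearts and 30.1, 15.3 and 27.9 CPM in Control hearts. Cd74 was low in 1 heart of each group, Ybx1cmKO heart 1 and Control heart 2, and the groups covered nearly the same range.

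None of the class II genes passed edgeR's quasi-likelihood test, which over all 13717 tested genes called 0% at a Benjamini-Hochberg adjusted p of 0.05. DESeq2 called 15 genes and limma-trend (pseudocount 0.5) 0, none of them a member. H2-Aa averaged 24.04 ± 17.2 CPM in Ybx1cmKO and 16.5 ± 5.997 CPM in Control hearts (SD, n = 3 each), a log2 fold change of 0.55 (SE 0.47, 95% interval -0.52 to 1.61, edgeR adjusted p = 0.707). H2-Ab1 averaged 12.3 ± 5.77 and 8.47 ± 3.56 CPM in Ybx1cmKO and Control hearts, a log2 fold change of 0.54 (SE 0.40, interval -0.37 to 1.45). H2-Eb1 averaged 24.8 ± 20.3 CPM in Ybx1cmKO and 13.4 ± 5.27 CPM in Control hearts, a log2 fold change of 0.89 (SE 0.55, interval -0.37 to 2.15). Cd74 averaged 25.1 ± 8.05 and 24.4 ± 7.95 CPM in Ybx1cmKO and Control hearts, a log2 fold change of 0.04 (SE 0.32, interval -0.69 to 0.77). The adjusted p was 0.697 for H2-Ab1, 0.694 for H2-Eb1 and 0.971 for Cd74 by edgeR, and the exact two-sided permutation p over hearts was 0.5 to 0.7 for the 4 genes, where 3 against 3 cannot give less than 0.1. The interval of H2-Eb1 held both no difference and one of over 2 log2 units, and a p above the threshold does not show that the groups were alike.

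The upward estimates of the class II chains rested on Ybx1cmKO heart 3. Without it the log2 fold change of H2-Aa was -0.23, that of H2-Eb1 -0.02 and that of H2-Ab1 0.10, and the median of the 4 class II members was -0.07, against 0.54 with all libraries. The levels in that heart were 3.11 times the mean of the other 2 Ybx1cmKO hearts for H2-Aa, 3.60 times for H2-Eb1 and 2.04 times for H2-Ab1, but 1.35 times for Cd74. Being highest of the 6 libraries and over 2 times the mean of Ybx1cmKO hearts 1 and 2 in this heart held for these 3 of the 8 members, against 4.96% of all tested genes, a threshold chosen after the values were seen. In the same heart the counts in mitochondrial rRNA and the levels of Malat1 and Xist were those given above. Their part in the class II levels was not tested.

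**Figure D2:**
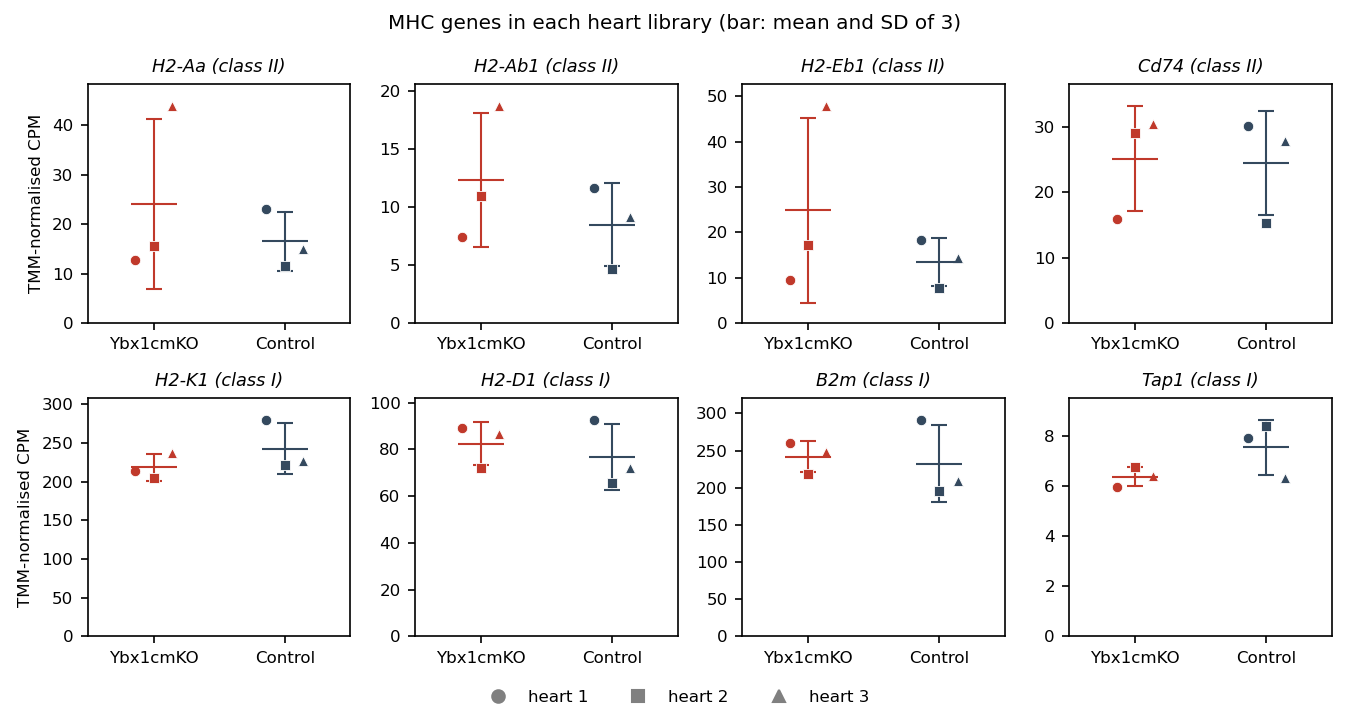
TMM-normalised CPM of the 8 MHC genes in each heart (marker shape, heart number), with the mean and SD of 3 hearts for Ybx1cmKO and Control. Ybx1cmKO heart 3 lies at 43.9, 18.7 and 47.8 CPM for H2-Aa, H2-Ab1 and H2-Eb1, above the other 5 libraries, while the class I genes overlap between groups.

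The hearts with Xist had the highest class II chain levels of their groups. H2-Aa, H2-Ab1 and H2-Eb1 together were at 29.6, 43.6 and 110 CPM in Ybx1cmKO hearts 1, 2 and 3, against 53.0, 23.8 and 38.3 CPM in Control hearts 1, 2 and 3. Within the Control group, heart 1 was above the mean of hearts 2 and 3 by 0.81 log2 units for H2-Aa, 0.76 for H2-Ab1, 0.72 for H2-Eb1 and 0.48 for Cd74. Between the hearts with Xist, 1 in each group, Ybx1cmKO over Control was 0.92 log2 units for H2-Aa, 0.68 for H2-Ab1, 1.39 for H2-Eb1 and 0.01 for Cd74. Over the 4 hearts without Xist, 2 in each group, the edgeR log2 fold change was 0.09 for H2-Aa, 0.39 for H2-Ab1, 0.25 for H2-Eb1 and 0.05 for Cd74. With 1 heart of this kind in each group the difference was not tested.

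The class II chains kept no fixed ratio to their invariant chain. H2-Eb1 stood to Cd74 as 0.592, 0.591 and 1.58 in Ybx1cmKO hearts 1, 2 and 3, against 0.605, 0.506 and 0.512 in Control hearts. H2-Aa stood to Cd74 as 0.807, 0.531 and 1.45 in Ybx1cmKO hearts, against 0.769, 0.747 and 0.536 in Control hearts. Ybx1cmKO heart 3 was therefore the library in which H2-Eb1 and H2-Aa exceeded Cd74, and in the other 5 libraries both ratios stayed under 1. H2-Ab1 stood to Cd74 as 0.468, 0.375 and 0.615 in Ybx1cmKO hearts, against 0.387, 0.301 and 0.329 in Control hearts. That ratio was highest in Ybx1cmKO heart 3 but under 1 in every library. H2-Aa stood to H2-Ab1 as 1.72, 1.42 and 2.35 in Ybx1cmKO hearts, against 1.99, 2.48 and 1.63 in Control hearts, so the A molecule's pair of chains showed no such break. These ratios are of CPM and do not depend on the scaling between libraries.

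H2-Ea, the alpha partner of H2-Eb1, had 0 counts in each of the 6 libraries, which allows up to 0.198 to 0.244 CPM per library (3 counts, counting error only). Mice of the H-2b haplotype, such as C57BL/6, carry a deletion that silences this gene, and the labels used here do not give the haplotype. H2-Eb1 transcripts were thus counted without those of the chain they pair with.

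The class I members varied less between hearts than the class II chains, with 1.00 to 1.14 times the mean of the other 2 Ybx1cmKO hearts in Ybx1cmKO heart 3. H2-K1, the K heavy chain, was at 214, 204 and 237 CPM in Ybx1cmKO hearts, against 280, 221 and 226 CPM in Control hearts. H2-D1, the D heavy chain, was at 89.1, 71.9 and 86.4 CPM in Ybx1cmKO hearts, against 92.7, 65.8 and 71.8 CPM in Control hearts. B2m, the light chain shared by all class I molecules, was at 259.6, 219 and 248 CPM in Ybx1cmKO hearts, against 292, 196 and 209 CPM in Control hearts. For each of these 3 genes Control heart 1 was the highest of the 6 libraries and the groups overlapped. Tap1, a subunit of the peptide transporter, was at 5.98, 6.75 and 6.39 CPM in Ybx1cmKO hearts, against 7.93, 8.41 and 6.30 CPM in Control hearts. Ybx1cmKO hearts lay close together for Tap1, and Control heart 3 fell among them.

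No class I member passed the test either. H2-K1 averaged 218 ± 17.1 CPM in Ybx1cmKO and 243 ± 32.5 CPM in Control hearts (SD, n = 3 each), a log2 fold change of -0.15 (SE 0.19, 95% interval -0.59 to 0.29, edgeR adjusted p = 0.777). H2-D1 averaged 82.5 ± 9.24 and 76.8 ± 14.1 CPM in Ybx1cmKO and Control hearts, a log2 fold change of 0.10 (interval -0.36 to 0.56). B2m averaged 242 ± 21.03 and 232 ± 51.8 CPM in Ybx1cmKO and Control hearts, a log2 fold change of 0.06 (interval -0.43 to 0.55). Tap1 averaged 6.37 ± 0.386 and 7.55 ± 1.104 CPM in Ybx1cmKO and Control hearts, a log2 fold change of -0.24 (interval -0.69 to 0.21). Adjusted p by edgeR was 0.706 to 0.926 for the 4 genes and the exact two-sided permutation p 0.3 to 0.8. Without Ybx1cmKO heart 3 the log2 fold change was -0.22 for H2-K1, 0.07 for H2-D1, 0.04 for B2m and -0.24 for Tap1. Without both hearts with Xist it was -0.10 for H2-K1, 0.22 for H2-D1, 0.24 for B2m and -0.20 for Tap1. The intervals of all 4 class I members and of Cd74 lay within a 2-fold difference either way, as did 63.5% of all tested genes, while those of the 3 class II chains reached past it. H2-K1 was at 0.01 rather than below 0 when the libraries were not scaled, a setting that put the median of all genes at 0.17.

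**Figure D3:**
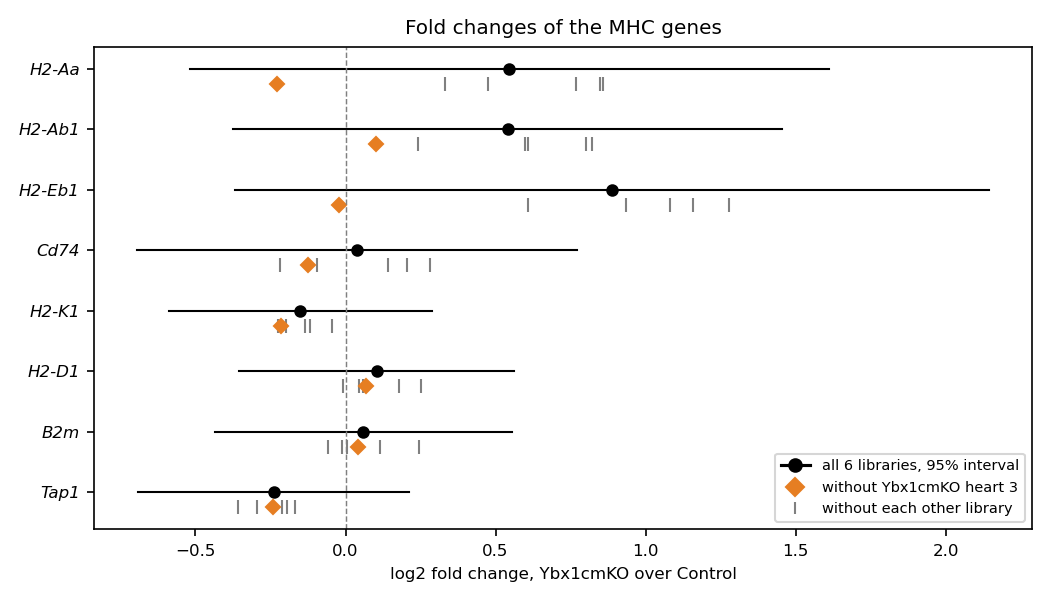
log2 fold change of each MHC gene, Ybx1cmKO over Control, with its 95% interval from edgeR (black), the estimate without Ybx1cmKO heart 3 (orange diamond) and without each other library (grey ticks). All 8 intervals cross 0, and leaving out Ybx1cmKO heart 3 brings H2-Aa to -0.23 and H2-Eb1 to -0.02.

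Read against all genes, 0 of the 8 members had an unadjusted edgeR p below 0.05, and 5.14% of the tested genes did (705 genes, 369 of them higher in Ybx1cmKO). Without the filter on low values 3 members had such a p, H2-Aa (0.0204), H2-Ab1 (0.0272) and H2-Eb1 (2.54e-04) by edgeR, as did 2487 of 33251 genes, and H2-Eb1 also did without Ybx1cmKO heart 1 (0.0230). None of these 4 passed after adjustment. That split was 490 of 658 higher without scaling factors and 376 of 593 higher by limma-trend on the deposited CPM. For 0 members did all Ybx1cmKO values lie above all Control values, which held for 6.26% of tested genes, and for 0 members did all lie below, which held for 5.82%. The 4 class II members all had estimates above 0 with a median of 0.54, the 4 class I members were 2 above and 2 below with a median of -0.05, and over all genes 51.1% were above 0 with a median of 0.01.

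The heavy chain transcripts were compared with each other within each library. H2-D1 stood to H2-K1 as 0.417, 0.352 and 0.364 in Ybx1cmKO hearts, against 0.331, 0.297 and 0.317 in Control hearts, so every Ybx1cmKO heart was above every Control heart in this ratio. It was 1 of 10 ratios computed and was given no test. Of single tested genes, 6.26% had all Ybx1cmKO hearts above all Control hearts, and no such share was computed for ratios. B2m stood to the sum of both heavy chains as 0.857, 0.792 and 0.765 in Ybx1cmKO hearts, against 0.782, 0.683 and 0.700 in Control hearts, with overlap at Control heart 1. Class I heavy chain genes are near-identical over much of their length, and H2-D1 had a count with a fraction of a read in 3 of the 6 libraries and H2-K1 in 1. Reads shared between such copies make the level of each, and their ratio, uncertain.

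Per kilobase of annotated exon, the order of levels in Ybx1cmKO hearts was B2m (281 ± 24.5 CPM per kb), H2-K1 (74.4 ± 5.81), H2-D1 (32.0 ± 3.58), Cd74 (14.95 ± 4.797), H2-Eb1 (12.8 ± 10.4), H2-Aa (6.33 ± 4.53), H2-Ab1 (4.804 ± 2.25) and Tap1 (1.16 ± 0.0705). Control hearts had the same order, with B2m at 269.9 ± 60.2 CPM per kb, H2-K1 at 82.6 ± 11.1, H2-D1 at 29.8 ± 5.47, Cd74 at 14.5 ± 4.74, H2-Eb1 at 6.90 ± 2.71, H2-Aa at 4.35 ± 1.58, H2-Ab1 at 3.30 ± 1.39 and Tap1 at 1.38 ± 0.202. B2m was above H2-K1, H2-K1 above H2-D1 and H2-D1 above Cd74 in all 6 libraries. Cd74 was above H2-Eb1 in 5 of 6, and H2-Aa above H2-Ab1 in 5 of 6. In means over hearts, Cd74 and H2-Eb1, H2-Eb1 and H2-Aa, and H2-Aa and H2-Ab1 differed by less than their summed SDs in Ybx1cmKO hearts, as did the last 2 of these pairs in Control hearts. Lengths are those of merged exons in GENCODE M21, which is not the annotation of the counts. Because cDNA was primed at the poly(A) tail, coverage along a transcript may be uneven.

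The rest of class II presentation was read from a list of 14 further genes, of which 8 were tested. Of these, 7 were above 0 and 1 below, with a median of 0.30, and none was called. Lgmn, the endosomal protease legumain, was at 18.1, 20.4 and 40.9 CPM in Ybx1cmKO hearts, against 14.9, 12.7 and 20.7 CPM in Control hearts (log2 fold change 0.72, SE 0.34, edgeR adjusted p = 0.694). Ctsl, the protease cathepsin L, was at 41.9, 47.5 and 68.2 CPM in Ybx1cmKO hearts, against 39.3, 32.5 and 43.8 CPM in Control hearts. In both genes Ybx1cmKO heart 3 was again the highest library, and without it the log2 fold change was 0.25 for Lgmn and 0.21 for Ctsl, against 0.45 for Ctsl with all libraries. The peptide exchange factor gene H2-DMa, named after its values were seen, was at 1.36, 1.14 and 2.28 CPM in Ybx1cmKO hearts, against 1.38, 0.924 and 1.06 CPM in Control hearts, a log2 fold change of 0.52 that was 0.16 without Ybx1cmKO heart 3. Without that heart the list was 5 above 0 and 3 below, with a median of 0.11. Without both hearts with Xist, 4 of the 8 tested genes were above 0, with a median of 0.05. H2-Oa, H2-Ob, H2-Eb2, H2-DMb2, H2-Ea and Marchf1 were below the level tested (CPM of at least 1 in at least 3 libraries).

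The regulators of MHC transcription were read next. Of 9 tested, 3 were above 0 and 6 below, with a median of -0.17 and none called. Nlrc5, the coactivator of class I genes, was at 2.51, 1.59 and 1.00 CPM in Ybx1cmKO hearts, against 3.40, 2.31 and 1.99 CPM in Control hearts (log2 fold change -0.60, SE 0.39, and -0.31 without Ybx1cmKO heart 3). Rfx5, a subunit of the factor bound to the X box, was at 1.16, 1.29 and 2.22 CPM in Ybx1cmKO hearts, against 2.02, 1.66 and 2.85 CPM in Control hearts. Its log2 fold change was -0.48, and -0.85 without Ybx1cmKO heart 3. Without both hearts with Xist the log2 fold change was -0.06 for Nlrc5 and -0.91 for Rfx5. Nlrc5 and Rfx5 were given an edgeR adjusted p of 0.694 or more. Ciita, the class II coactivator, outside the naming rule and chosen after its values were seen, was at 0.612, 1.29 and 0.612 CPM in Ybx1cmKO hearts, against 1.46, 1.02 and 0.995 CPM in Control hearts. Over all 6 libraries Ciita rested on 81 counts, and Ybx1cmKO heart 3, highest in the class II chains, was among the lowest for it.

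Among 17 other class I-like genes, 10 were tested, 7 above 0 and 3 below with a median of 0.09. Ybx1cmKO heart 3 was the highest library for 5 of the 17. Hfe, a class I-like protein that takes part in iron sensing, was at 12.1, 11.3 and 15.5 CPM in Ybx1cmKO hearts, against 8.17, 6.37 and 9.68 CPM in Control hearts. All Ybx1cmKO hearts were above all Control hearts for Hfe, with a log2 fold change of 0.68 (SE 0.22, edgeR adjusted p = 0.694), which did not pass over all genes. The unadjusted p from edgeR was 0.0146, and the exact permutation p was 0.1. Mr1, which presents vitamin B metabolites, was at 3.74, 3.79 and 4.11 CPM in Ybx1cmKO hearts, against 3.88, 1.94 and 2.65 CPM in Control hearts. Outside the naming rule, H2-Q4, H2-Q6, H2-Q7 and H2-T23 had fractions of a read in all 6 libraries and are uncertain.

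Peptide supply and loading for class I gave 12 tested genes, 6 above 0 and 6 below, with a median of -0.005. Without Ybx1cmKO heart 3, 4 were above and 8 below, with a median of -0.11. That heart was the highest library for 5 of the 12 genes. One of them, the loading complex gene Pdia3, was chosen after its values were seen. Pdia3 was at 49.1, 64.2 and 108 CPM in Ybx1cmKO hearts, against 63.9, 54.7 and 71.8 CPM in Control hearts. Its log2 fold change was 0.22, and -0.17 without Ybx1cmKO heart 3. Calr and Tapbpl were lowest in that heart. Calr, the chaperone calreticulin of the loading complex, was at 233, 225 and 203 CPM in Ybx1cmKO hearts, against 267, 247 and 250.5 CPM in Control hearts (log2 fold change -0.21, SE 0.18, edgeR adjusted p = 0.706). Tapbpl, which edits the peptides of class I molecules, was at 1.36, 1.52 and 1.17 CPM in Ybx1cmKO hearts, against 1.94, 1.66 and 2.12 CPM in Control hearts (log2 fold change -0.51, SE 0.29). For both genes all Ybx1cmKO hearts were below all Control hearts, and neither passed the test. Psmb9, an immunoproteasome subunit that overlaps Tap1 on the other strand in GENCODE M21, was at 9.04, 6.45 and 8.12 CPM in Ybx1cmKO hearts, against 8.82, 6.47 and 5.31 CPM in Control hearts. It was chosen for that overlap. The library protocol describes no step that keeps the strand, so reads in the shared stretch of Tap1 and Psmb9 cannot be told apart.

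Interferon gamma induces both classes, and its signalling list gave 18 tested genes, 11 above 0 and 7 below, with a median of 0.05 and none called. Without Ybx1cmKO heart 3 it was 8 above and 10 below, with a median of -0.09. Gbp7, an interferon-induced GTPase, was at 17.5, 17.7 and 11.9 CPM in Ybx1cmKO hearts, against 22.001, 23.8 and 17.9 CPM in Control hearts (log2 fold change -0.44, SE 0.22, edgeR adjusted p = 0.694). Ifngr1, a subunit of the receptor, was at 81.5, 61.6 and 76.9 CPM in Ybx1cmKO hearts, against 52.3, 59.8 and 67.2 CPM in Control hearts. Gbp7 was lower in every Ybx1cmKO heart than in every Control heart and Ifngr1 overlapped. Ybx1cmKO heart 3 was the highest library for 6 of the 19 listed genes and the lowest for Gbp7. The receptor subunit gene Ifngr2, chosen after its values were seen, was at 16.4, 28.5 and 46.0 CPM in Ybx1cmKO hearts, against 23.5, 17.1 and 30.2 CPM in Control hearts. Its log2 fold change was 0.36, and -0.08 without Ybx1cmKO heart 3. Taking the 71 pathway genes outside the members, 57 were tested, 34 above and 23 below 0, where 51.1% of all tested genes were above. Of the 57, 1 had an unadjusted edgeR p below 0.05, which was Hfe, against 5.14% of all tested genes. All Ybx1cmKO hearts lay above all Control hearts for 1 (Hfe) and below for 3 (Calr, Tapbpl and Gbp7). Over all tested genes these held for 6.26% and 5.82%.

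Markers of the cells that carry class II molecules were set beside these levels. In bulk RNA fewer cells of a type and less RNA per cell cannot be told apart. The 14 macrophage and monocyte markers summed to 176, 149 and 150 CPM in Ybx1cmKO hearts 1, 2 and 3, against 127, 119 and 139 CPM in Control hearts. Every Ybx1cmKO heart was above every Control heart in that sum, and 10 of 12 tested members were above 0 with a median of 0.34 and none called. The 2 below 0, named for their direction, were Cd163 (log2 fold change -0.51) and Ly6c2 (-0.29). Of the 12, 1 had all Ybx1cmKO hearts above all Control hearts and 1 had all below. Over all tested genes these held for 6.26% and 5.82%. C1qa, a complement subunit made by resident macrophages, was at 45.6, 41.8 and 38.8 CPM in Ybx1cmKO hearts, against 31.9, 30.4 and 37.9 CPM in Control hearts (log2 fold change 0.33, SE 0.18, edgeR adjusted p = 0.694). Csf1r, the growth factor receptor of macrophages, was at 9.04, 6.22 and 9.45 CPM in Ybx1cmKO hearts, against 6.39, 5.17 and 6.97 CPM in Control hearts. Single markers of the list went different ways in Ybx1cmKO heart 3, which was the highest library for 6 of the 14. The macrophage surface protein gene Adgre1 was at 2.38, 1.97 and 5.45 CPM in Ybx1cmKO hearts, against 2.51, 1.48 and 2.32 CPM in Control hearts, and the complement subunit C1qc was at 22.4, 26.4 and 42.1 CPM in Ybx1cmKO hearts, against 22.2, 15.2 and 26.5 CPM in Control hearts. Both were highest in Ybx1cmKO heart 3, as were C1qb and Fcgr1, at 1.503 and 2.14 times the mean of the other 2 Ybx1cmKO hearts. Fcgr1 was below the level tested and is not among the 12 tested members, so its ratio rests on low values. Lyve1, a marker of resident macrophages and of lymphatic endothelium, was at 51.2, 32.8 and 15.8 CPM in Ybx1cmKO hearts, against 27.7, 30.9 and 29.3 CPM in Control hearts. The scavenger receptor gene Mrc1 was at 20.9, 13.9 and 11.0 CPM in Ybx1cmKO hearts, against 13.0, 12.1 and 10.9 CPM in Control hearts. Lyve1 was lowest of the 6 libraries in the heart where Adgre1 and C1qc were highest (these 6 markers beside C1qa and Csf1r were chosen after their values were seen). The list's median was 0.19 without Ybx1cmKO heart 3, with 9 of 12 above 0. The 3 class II chains stood to the macrophage sum as 0.168, 0.293 and 0.734 in Ybx1cmKO hearts, against 0.417, 0.200 and 0.276 in Control hearts.

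Markers of dendritic, B, plasma, T and NK cells were at low levels. The 9 dendritic cell markers summed to 14.4, 9.86 and 9.67 CPM in Ybx1cmKO hearts, against 11.8, 19.1 and 13.5 CPM in Control hearts. Most of that sum was Zbtb46, which endothelial cells also express, at 12.5, 8.65 and 8.06 CPM in Ybx1cmKO hearts and 10.03, 17.6 and 11.5 CPM in Control hearts. The defining dendritic marker Flt3 had 1 count in all 6 libraries together, and Itgax was at 0.334 CPM or less in each. The 8 B and plasma cell markers summed to 7.54, 5.08 and 8.62 CPM in Ybx1cmKO hearts, against 5.18, 3.97 and 5.77 CPM in Control hearts. Most of it was Jchain and Ighm. Jchain, a gene of antibody-secreting cells, was at 3.40, 1.06 and 3.39 CPM in Ybx1cmKO hearts and 1.29, 0.739 and 1.92 CPM in Control hearts. The 9 T and NK cell markers summed to 1.77, 2.12 and 2.61 CPM in Ybx1cmKO hearts, against 2.35, 1.02 and 1.33 CPM in Control hearts, and none of them was tested.

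Of the 14 genes for T cell recognition and costimulation, 4 were tested, 2 above and 2 below 0, and Cd28 was at 3.47, 3.49 and 5.004 CPM in Ybx1cmKO hearts, against 3.15, 2.68 and 4.05 CPM in Control hearts. Dntt, Rag1, Rag2 and Ptcra, markers of thymus, had 0 counts in all 6 libraries, and the 2 tested genes of that list of 7 were above 0. Without Ybx1cmKO heart 3 those 2 tested genes were below 0. The pan-leukocyte genes Ptprc, Coro1a and Laptm5 summed to 30.2, 23.7 and 16.8 CPM in Ybx1cmKO hearts, against 24.3, 25.5 and 24.3 CPM in Control hearts, so Ybx1cmKO heart 3 was lowest where its class II chains were highest. Endothelial markers, 8 genes of a cell type that can carry class I and, when stimulated, class II molecules, summed to 529.8, 315 and 269.9 CPM in Ybx1cmKO hearts, against 428, 407 and 332 CPM in Control hearts. Fibroblast markers summed to 1831, 1707 and 2245 CPM in Ybx1cmKO hearts, against 1649, 1416 and 1762 CPM in Control hearts. Tcf21, a transcription factor of cardiac fibroblasts, was at 4.28, 2.96 and 12.6 CPM in Ybx1cmKO hearts, against 4.21, 3.51 and 3.32 CPM in Control hearts. Its level in Ybx1cmKO heart 3 was 3.47 times the mean of the other 2 Ybx1cmKO hearts, and its log2 fold change of 0.86 (SE 0.49, edgeR adjusted p = 0.694) was -0.02 without that heart. The fibroblast median was 0.35 with all libraries and 0.12 without Ybx1cmKO heart 3. Cardiomyocyte markers summed to 18666, 23351 and 22531 CPM in Ybx1cmKO hearts, against 26638, 22412 and 26615 CPM in Control hearts, the sums that mark the tissue as heart. Of the genes tested, 5 of 8 endothelial, 7 of 7 fibroblast, 3 of 8 cardiomyocyte and 1 of 3 pan-leukocyte markers had estimates above 0, and none was called. The pan-leukocyte median was -0.12 with all libraries and 0.09 without Ybx1cmKO heart 3. Of the 8 cardiomyocyte markers, 2 were lower at an unadjusted edgeR p below 0.05 and 3 had all Ybx1cmKO hearts below all Control hearts. Over all 13717 tested genes, 336 were lower at such a p and 5.82% had all Ybx1cmKO hearts below. The 3 cardiomyocyte markers above 0, named for their direction, were Pln (log2 fold change 0.69), Actc1 (0.32) and Tnni3 (0.05). Myh6, the alpha myosin heavy chain, was at 3845, 3943 and 2807 CPM in Ybx1cmKO hearts, against 6054, 5010 and 5405 CPM in Control hearts (log2 fold change -0.64, SE 0.25, edgeR unadjusted p = 0.0302, adjusted p = 0.694). Ttn, the sarcomere protein titin, was at 2589, 3069 and 1271 CPM in Ybx1cmKO hearts, against 4700, 3631 and 4004 CPM in Control hearts (log2 fold change -0.83, SE 0.34, edgeR unadjusted p = 0.0369, adjusted p = 0.694). Both were lower in every Ybx1cmKO heart than in every Control heart, lowest in Ybx1cmKO heart 3, and neither passed over all genes. The part of any of these cell types in the MHC levels was not tested.

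**Figure D4:**
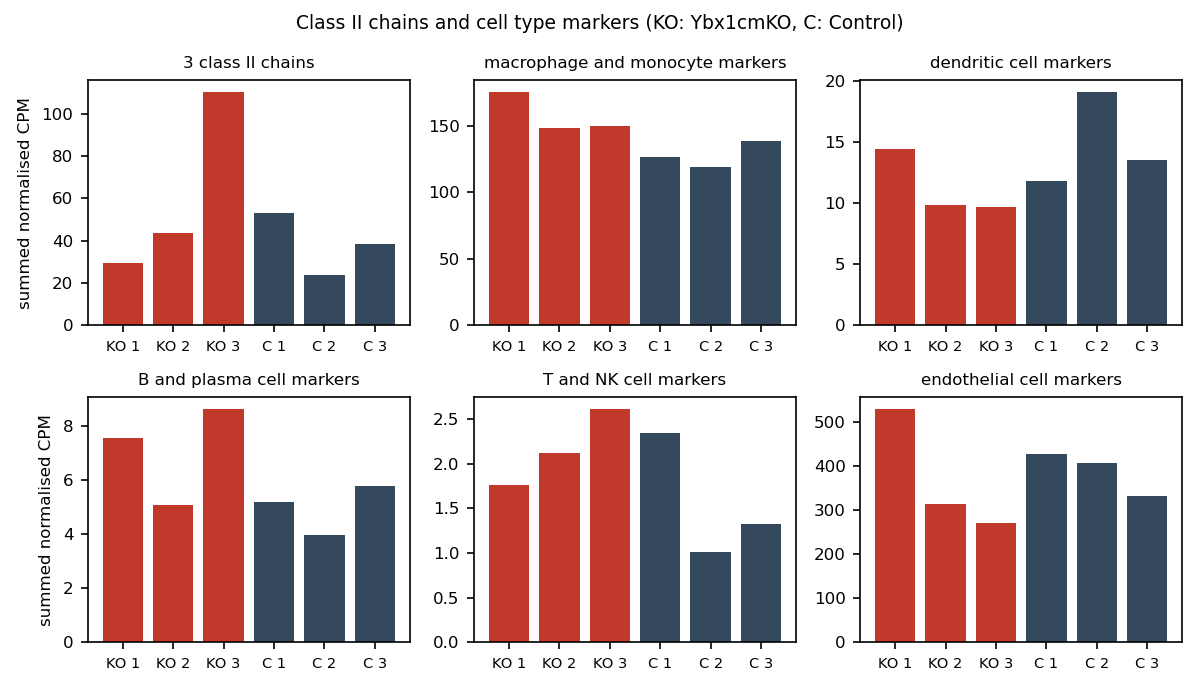
Summed TMM-normalised CPM of H2-Aa, H2-Ab1 and H2-Eb1, and of 5 cell type marker lists, in each library (red, Ybx1cmKO hearts; dark, Control hearts). The class II chains peak in Ybx1cmKO heart 3 at 110 CPM. Macrophage markers are at 150 CPM in that heart, against 176 and 149 CPM in Ybx1cmKO hearts 1 and 2 and 119 to 139 CPM in Control hearts.

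Genes that followed the members across the 6 libraries were listed as a description, by Pearson's r with the mean standardised log2 level of each class among 8061 protein-coding genes with a mean of at least 5 CPM. For class II the closest were Alkbh5 (r = 0.996), Vps28 (0.994), Tmbim6 (0.993) and 1600014C10Rik (0.989), and 525 genes had r above 0.9. Alkbh5, an RNA demethylase, was at 30.9, 37.2 and 47.9 CPM in Ybx1cmKO hearts, against 38.8, 28.2 and 36.8 CPM in Control hearts, the same order of libraries as the summed class II members, over a narrower range. For class I the closest were Jarid2 (r = 0.960), Cc2d2a (0.953), Cask (0.950), 9130401M01Rik (0.949) and Nbn (0.943), and 13 genes had r above 0.9. The 6 points share library depth and composition.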

How the data were processed

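Per the labels' protocols, RNA was extracted with TRIzol and cDNA was primed with oligo(dT), then tagmented and amplified. The submitters' processing notes name STAR 2.7.11, edgeR 4.0.16, Subread 2.1.1 with featureCounts, SAMtools 1.22.1 and build mm39, without their roles. How reads were annotated, stranded or multi-mapped is not given in the sources used here. A table the authors deposited holds estimated counts per gene, 21.3% to 22.7% of the detected ones not whole (tolerance 0.001). The authors' deposited CPM is the count scaled to the column total.

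Counts were rounded, genes with CPM of at least 1 in 3 or more libraries kept (13717), scaled by TMM and tested with edgeR 4.0.16 (R 4.3.3), quasi-likelihood, two-sided, with Benjamini-Hochberg adjustment over all genes at 0.05. The code was tested on simulated data. Alternatives used limma 3.58.1 and DESeq2 1.42.0. No libraries of a group agreed within sampling noise. Exon lengths were matched for 160 of 160 listed genes.

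The members and the 17 gene lists were chosen with earlier results of these data known. Named genes are the members, the 2 genes of smallest p per list, markers near 0 and the 5 genes closest to each class, with exceptions stated; some genes that the rule names are not reported here.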

Additional observations from a re-analysis of the deposited data

How the results depend on the processing

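No member was called in any of 16 alternatives. The smallest adjusted p was 0.0578, for H2-Eb1 in edgeR without a filter on low values, a fit that called 133 of 33251 genes. Over all genes edgeR called 0 with the filter (705 at unadjusted p below 0.05). DESeq2 called 15, limma-trend with a pseudocount of 1 called 1 and with 0.5 called 0, edgeR without the 2 libraries that express Xist (chosen after seeing the data) called 5, and fits that left out 1 library called 0 to 3. At unadjusted p below 0.05 there were 2487 genes without the filter, 395 without the libraries that express Xist and 200 to 1745 without 1 library.

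Of 128 member estimates 117 kept their direction and 11 reversed. H2-K1 was at 0.0093 without scaling factors and at 0.013 by limma-trend with either pseudocount, settings that put the median of all genes at 0.17, 0.14 and 0.13. The other 8 came from leaving out 1 library. Those fits gave -0.23 to 0.86 for H2-Aa, 0.10 to 0.82 for H2-Ab1, -0.021 to 1.28 for H2-Eb1, -0.22 to 0.28 for Cd74, -0.22 to -0.05 for H2-K1, -0.0084 to 0.25 for H2-D1, -0.060 to 0.25 for B2m and -0.36 to -0.17 for Tap1. The class II median ranged from -0.07 to 0.84 and the class I median from -0.11 to 0.10. The libraries behind the sign changes were Ybx1cmKO heart 3 for H2-Aa and H2-Eb1, Ybx1cmKO hearts 2 and 3 and Control heart 2 for Cd74, Control heart 2 for H2-D1 and Control hearts 2 and 3 for B2m. The causes were not tested.

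With the replicate number as a block edgeR called 5 genes, none of them a member, and 1807 had an unadjusted p below 0.05. Deviations of same-numbered hearts correlated at -0.11, 0.45 and 0.58, and Ybx1cmKO heart 1 correlated best with Control heart 2 (0.57), so the numbers were not taken as pairs. Depth was lowest for Tap1 among the members, with 576 counts in all, and its SE of 0.20 was close to the 0.19 of H2-K1. Medians of the other lists without Ybx1cmKO heart 3 or without the libraries that express Xist were also added after seeing the data, and 0 of their genes were called in either.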
